A study of Mus musculus with 6 samples.

Results

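The PRDM family is a group of nuclear proteins, most with a PR domain followed by C2H2 zinc fingers, that includes PRDM16, the protein whose gene was deleted in this study. The members described here are 9 genes of the deposited table of 55426 genes, found by an exact match of the gene name to Prdm16, Mecom, Prdm1, Prdm2, Prdm4, Prdm6, Prdm8, Prdm10 and Prdm15. Another 5 PRDM genes of the table, Prdm9, Prdm11, Prdm12, Prdm13 and Prdm14, are given beside them. RNA was sequenced from the abdominal aorta of male Prdm16SMKO and male control mice of strain C57BL/6J, with 3 libraries per group. Whether a library holds 1 mouse or several is not given in the sources used here, so p-values measure the spread between these libraries. Prdm16SMKO mice carried Prdm16flox/flox together with Myh11-CreERT2, a Cre recombinase that tamoxifen activates and that the Myh11 promoter drives in vascular smooth muscle cells (VSMCs), from a cassette on the Y chromosome. Control mice are described by the paper as wild-type mice carrying Myh11-CreERT2. Per the design text, male mice of 8 to 10 weeks of age were given tamoxifen by gavage at 75 mg/kg/day for 5 days and aortas were taken 2 weeks later, and the text does not describe the control mice separately. Values are TPM, a length-corrected share of the transcripts of a library scaled to the same total in each, which the authors made so that levels of different genes within a library can be set side by side. The aorta is a mixed tissue, so fewer cells of a type and less RNA per cell cannot be told apart in these values.

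PRDM proteins regulate transcription by binding DNA through their zinc fingers and by recruiting corepressors and histone-modifying enzymes, and some of them have histone methyltransferase activity of their own. PRDM16 is known for specifying brown and beige adipocytes and for roles in hematopoietic stem cells and palate development, and arteries express it in endothelium and in smooth muscle. MECOM, also called PRDM3 or EVI1, is its closest relative and a leukemia proto-oncogene, and PRDM6 is a repressor enriched in smooth muscle.

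In the longest coding transcript of each gene in GENCODE M21, the annotation on GRCm38 used here, PRDM16 had 1276 residues and MECOM had 1051. Both held 8 matches to a C2H2 zinc finger pattern, 2 cysteines and 2 histidines at fixed spacing. They were identical at 55.8% of 1022 aligned residues, 570 residues, and in 54.2% of the residues of the shorter protein, where the next most similar pair of the 14 described, PRDM6 and PRDM12, reached 34.2%. The number of pattern matches ranged from 0 in PRDM11 to 16 in PRDM15. Transcripts of Prdm16 and Mecom shared 6 stretches of 31 bases, and no pair of the 14 genes shared more, so that reads of one paralog had few places to match the other.

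Prdm16 lies on the minus strand of chromosome 4 of GRCm38, from 154316125 to 154636873, and Mecom on the minus strand of chromosome 3, from 29951296 to 30548008. Prdm16os, a non-coding transcript, starts 702 bases away from Prdm16 in the opposite direction (chromosome 4, 154637576 to 154644724, plus strand), and the exons of both shared 0 bases. The 250 bases before these starts are shown because the members' largest opposite differences were those of Prdm16 and Mecom. Another reason is that Prdm16 and Prdm16os start from 1 short interval. The windows are from the RefSeq promoter table (GRCm38.p6), 5′ to 3′ on the strand of the gene, with CG dinucleotides in capitals. Mecom has 2 entries there, called first and second start below, and the annotated gene begins upstream of both, at 30548008. Its TPM adds up all transcripts of the gene, of which GENCODE M21 lists 17.
Prdm16, chr4:154636874-154637123, minus strand: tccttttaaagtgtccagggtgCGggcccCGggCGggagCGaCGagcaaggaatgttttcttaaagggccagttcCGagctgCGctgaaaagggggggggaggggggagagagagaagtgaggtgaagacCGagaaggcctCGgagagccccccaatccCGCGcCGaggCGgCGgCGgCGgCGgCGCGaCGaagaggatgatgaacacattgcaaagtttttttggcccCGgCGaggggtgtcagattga
Prdm16os, chr4:154637330-154637579, plus strand: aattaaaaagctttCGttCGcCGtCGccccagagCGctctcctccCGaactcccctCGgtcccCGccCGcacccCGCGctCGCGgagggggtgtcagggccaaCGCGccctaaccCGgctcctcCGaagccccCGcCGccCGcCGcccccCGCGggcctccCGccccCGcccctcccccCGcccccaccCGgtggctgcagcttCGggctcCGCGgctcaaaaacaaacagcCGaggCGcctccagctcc
Mecom, first start, chr3:30509760-30510009, minus strand: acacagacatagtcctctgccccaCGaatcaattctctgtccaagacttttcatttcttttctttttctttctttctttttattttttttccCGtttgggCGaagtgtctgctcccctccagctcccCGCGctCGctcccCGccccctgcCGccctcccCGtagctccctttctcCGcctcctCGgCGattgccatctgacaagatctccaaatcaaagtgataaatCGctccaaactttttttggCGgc
Mecom, second start, chr3:30013205-30013454, minus strand: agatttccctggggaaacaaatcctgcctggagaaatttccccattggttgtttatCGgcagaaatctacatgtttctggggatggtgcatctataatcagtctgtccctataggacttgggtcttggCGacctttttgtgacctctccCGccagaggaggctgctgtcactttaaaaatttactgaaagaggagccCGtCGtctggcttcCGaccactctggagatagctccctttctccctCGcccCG

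The Prdm16 window held 22 CG dinucleotides, a count reached by 14.8% of all 32851 promoter windows of that length, and the Prdm16os window held 32, reached by 4.58%. The Mecom windows held 14 and 8, against a median of 6 over all windows. Promoter entries were found for 11 of the 14 PRDM genes, with 16 windows in all. Prdm2, Prdm6 and Prdm14 had no entry, so their promoters were not searched for the motifs below. On either strand, the letters CATTCC, the core of sites bound by TEAD factors, were in 3 of the 16 windows, among them that of Prdm16, and in 12.6% of all windows. The CArG box, bound by serum response factor in smooth muscle genes, was in 0 of the 16 and in 1.47% of all windows, and the E-box letters CACGTG were in 0 of the 16 and in 6.02% of all. A match describes letters only.

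The labels give the read length, 151 bp in pairs, and only an average depth over all libraries, and TPM keep no record of the depth of a single one, so counting error is not known. Mitochondrially encoded genes took 15.8% to 27.4% of the TPM and 15.5% to 31.4% went to 2 transcripts of the 45S ribosomal RNA, and the ranges of the groups overlapped. All 9 smooth muscle markers were present in every library, with a summed level of 15240 to 25790 TPM in control and 11850 to 18140 TPM in Prdm16SMKO mice, so the tissue matched its label. Adipose, nerve and immune transcripts were present in unequal amounts. The summed level of 6 brown adipocyte markers was 73.1 to 253 TPM in control libraries and 126, 15.02 and 675 TPM in Prdm16SMKO replicates 1, 2 and 3. The sum of 6 adipocyte markers was 338 to 782 TPM in control and 605 to 2019 TPM in Prdm16SMKO libraries, that of 8 neuron and Schwann cell markers was 47.6 to 228 and 86.3 to 657 TPM, and that of 7 macrophage markers was 70.2 to 110 and 110 to 201 TPM. The part of these unequal amounts in the differences between the groups was not tested.

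Among the 14 PRDM genes described, Prdm6 and Prdm16 were the most abundant transcripts of the control aorta. Together they made up 65.4% ± 0.412 (SD, n = 3) of the summed TPM of the 14 genes. Prdm6 reached 71.9, 74.2 and 57.2 TPM in control replicates 1, 2 and 3, above the level of 92.0% of the 15775 genes tested. Prdm16 was at 33.4, 36.8 and 30.8 TPM, above 83.5% of them. These ranges stood clear of each other and of those of the other genes among the 14.

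Below them came Prdm2, which encodes the retinoblastoma-binding protein RIZ, with a control mean of 14.4 TPM, and Mecom with 12.5 TPM. Prdm11, a PRDM gene outside the members with no zinc finger match and little known function, had 11.5 TPM. Prdm2 and Mecom overlapped in range, and so did Mecom and Prdm11. Prdm4 followed at 5.79 TPM, with no overlap between neighbours from Prdm11 to Prdm15. Then came Prdm15 (3.89 TPM), Prdm10 (3.51 TPM) and Prdm9 (1.93 TPM), where Prdm10 overlapped both of its neighbours.

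The remaining genes were at or near 0. Prdm1, which encodes BLIMP1, the regulator of plasma cell differentiation, was at 0.08, 0.01 and 0.05 TPM in control and 0.07, 0.16 and 0.30 TPM in Prdm16SMKO replicates 1, 2 and 3. Prdm8, known for roles in neurons, was at 0, 0.11 and 0.04 TPM in control and 0.33, 0.03 and 0.11 TPM in Prdm16SMKO replicates. For each of these 2 genes the groups overlapped, and neither reached the minimum mean of 0.5 TPM over the 6 libraries that a gene had to reach to be tested. Prdm12 and Prdm13, transcription factors of neurons, were listed at 0 in every library. Prdm14, a germ cell factor, did not exceed 0.04 TPM.

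**Figure D1:**
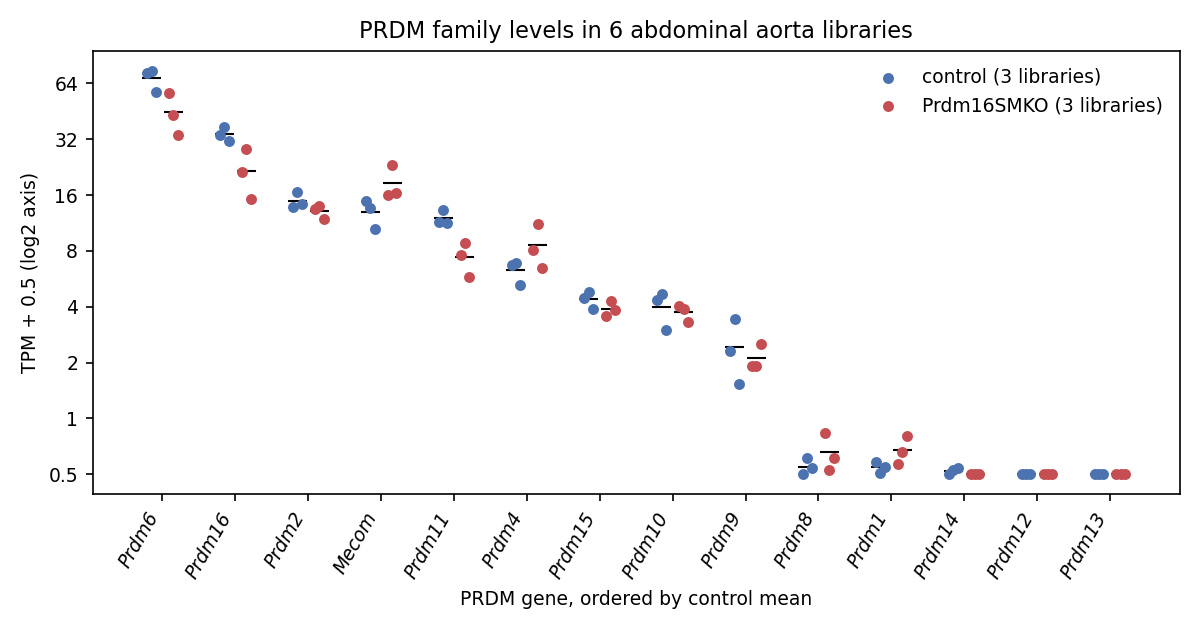
Level of the 14 PRDM genes as TPM + 0.5 on a log2 axis, 1 point per library (blue, 3 control; red, 3 Prdm16SMKO), ordered by control mean, with a bar at each group's mean. Prdm6 and Prdm16 lie above the rest in control mice, and in Prdm16, Prdm6 and Prdm11 every red point is below every blue point, while in Mecom every red point is above.

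Prdm16 mRNA was lower but still abundant in Prdm16SMKO aortas, while Mecom mRNA was higher. Prdm16 was at 20.8, 27.7 and 14.8 TPM in Prdm16SMKO replicates 1, 2 and 3, so that the highest of them was below the lowest control library. Control mice averaged 33.7 ± 3.04 TPM and Prdm16SMKO mice 21.1 ± 6.46 TPM (SD, n = 3 each), which is 62.6% of control. On the log2(TPM + 0.5) scale, which understates the change of low genes, the difference was −0.70 with a 95% interval from −1.22 to −0.19 (limma, unadjusted p = 0.0126, Benjamini-Hochberg adjusted p = 0.376). The gene's TPM adds up all of its exons, and the exons flanked by loxP sites are not given in the sources used here, so the value is not a measure of recombination. The exact permutation test gave a two-sided p of 0.1, the smallest that 3 libraries against 3 allow.

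Control replicates 1, 2 and 3 had 14.4, 13.04 and 9.99 TPM of Mecom, and Prdm16SMKO replicates 1, 2 and 3 had 15.4, 22.7 and 15.9 TPM. Every Prdm16SMKO library was above every control library, replicate 1 only narrowly. Group means were 12.5 ± 2.25 TPM and 18.02 ± 4.06 TPM (SD, n = 3 each), and the log2 difference was 0.51 with a 95% interval from 0.03 to 0.99 (limma, unadjusted p = 0.0401, Benjamini-Hochberg adjusted p = 0.537; exact permutation test, two-sided p = 0.1). Neither Prdm16 nor Mecom passed the threshold of an adjusted p under 0.05 over all genes.

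The ratio of both paralogs within a library combines these differences, and since Prdm16 was lower it is no further measure of Mecom. For each 100 TPM of Prdm16 there were 43.0, 35.4 and 32.5 TPM of Mecom in control replicates 1, 2 and 3 and 74.5, 82.0 and 108 TPM in Prdm16SMKO replicates 1, 2 and 3. The groups did not overlap, and in Prdm16SMKO replicate 3 Mecom exceeded Prdm16. The sum of both paralogs was 47.8, 49.9 and 40.8 TPM in control and 36.2, 50.4 and 30.7 TPM in Prdm16SMKO replicates, so its ranges overlapped. In the order of levels in Prdm16SMKO mice Mecom came after Prdm6 and Prdm16, with a range that overlapped that of Prdm16 and not that of Prdm2.

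**Figure D2:**
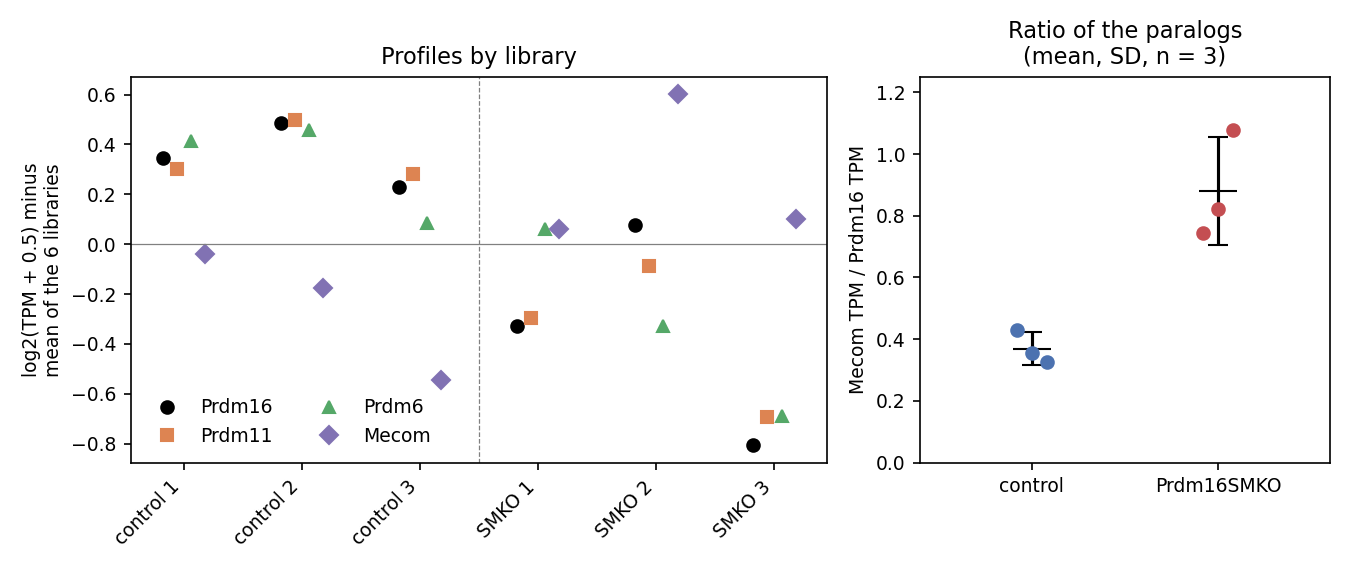
Left, log2(TPM + 0.5) minus the mean of the 6 libraries for Prdm16, Prdm11, Prdm6 and Mecom in each library, with a dashed line between the groups. Right, the ratio of Mecom TPM to Prdm16 TPM, with 1 point per library, the mean (bar) and the SD (n = 3), which was 0.370 ± 0.0545 in control and 0.881 ± 0.174 in Prdm16SMKO mice.

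Prdm6, the most abundant member, and Prdm11 were also lower in every Prdm16SMKO library than in any control library. Prdm6 (chromosome 18, 53463583 to 53575907) was at 56.3, 42.9 and 33.3 TPM in Prdm16SMKO replicates 1, 2 and 3, and the gap to the nearest control library was under 1 TPM. Control mice averaged 67.8 ± 9.21 TPM of it and Prdm16SMKO mice 44.2 ± 11.6 TPM (SD, n = 3 each), or 65.1% of control, and the log2 difference was −0.64 with a 95% interval from −1.12 to −0.16 (limma, unadjusted p = 0.0154, Benjamini-Hochberg adjusted p = 0.409; exact permutation test, two-sided p = 0.1). Prdm11 (chromosome 2, 92965151 to 93046167) was at 11.01, 12.7 and 10.9 TPM in control and 7.12, 8.30 and 5.28 TPM in Prdm16SMKO replicates 1, 2 and 3. Its log2 difference of −0.72 (95% interval −1.17 to −0.27) was the largest in size among the 9 PRDM genes tested here. It too was short of the threshold (limma, unadjusted p = 0.00587, Benjamini-Hochberg adjusted p = 0.268; exact permutation test, two-sided p = 0.1).

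The remaining tested members overlapped between the groups. Prdm4, a zinc finger protein that binds the neurotrophin receptor p75, was at 6.23, 6.38 and 4.75 TPM in control and 7.54, 10.7 and 5.95 TPM in Prdm16SMKO replicates 1, 2 and 3, a log2 difference of 0.42 (95% interval −0.12 to 0.96; limma, Benjamini-Hochberg adjusted p = 0.724). It was 0.21 without Prdm16SMKO replicate 2 and 0.60 without replicate 3. Only Prdm16SMKO replicate 3 fell within the control range. Prdm2 lies on the same chromosome as Prdm16, 11.1 Mb away, and was at 13.3, 16.1 and 13.8 TPM in control and 12.97, 13.5 and 11.3 TPM in Prdm16SMKO replicates. Its log2 difference was −0.18 (95% interval −0.55 to 0.18; limma, Benjamini-Hochberg adjusted p = 0.879), and the groups overlapped only through Prdm16SMKO replicate 2.

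The intervals of the rest also spanned 0. They ran from −0.61 to 0.28 for Prdm15, a regulator of early embryonic and pluripotent cells, from −0.61 to 0.45 for Prdm10, a regulator of the folliculin gene, and from −0.89 to 0.62 for Prdm9, the methyltransferase that places meiotic recombination sites. Prdm15 was at 3.96, 4.33 and 3.39 TPM in control and 3.08, 3.79 and 3.36 TPM in Prdm16SMKO replicates 1, 2 and 3, and Prdm10 at 3.86, 4.16 and 2.51 TPM and 3.54, 3.37 and 2.82 TPM. Their limma adjusted p-values were 0.922 and 0.982. Prdm9 was at 1.81, 2.93 and 1.04 TPM in control and 1.42, 1.41 and 2.03 TPM in Prdm16SMKO replicates. For these genes a change within those intervals was not detectable with 3 libraries per group.

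Over the 9 members, 7 could be tested and 0 were called at an adjusted p under 0.05 (limma), where 0.355% of all genes tested were called. At an unadjusted p under 0.05 there were 3, Prdm16, Prdm6 and Mecom, against 8.74% of all genes. The groups did not overlap, with Prdm16SMKO below control, in 2 of the 7, against 5.76% of all genes, and with Prdm16SMKO above control in 1 of the 7, against 7.02%. Of the 7, 2 were higher and 5 lower in Prdm16SMKO mice, with a median log2 difference of −0.17 beside 0.02 over all genes tested. The counts at an unadjusted p, below control and lower each include Prdm16, the gene deleted by design.

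**Figure D3:**
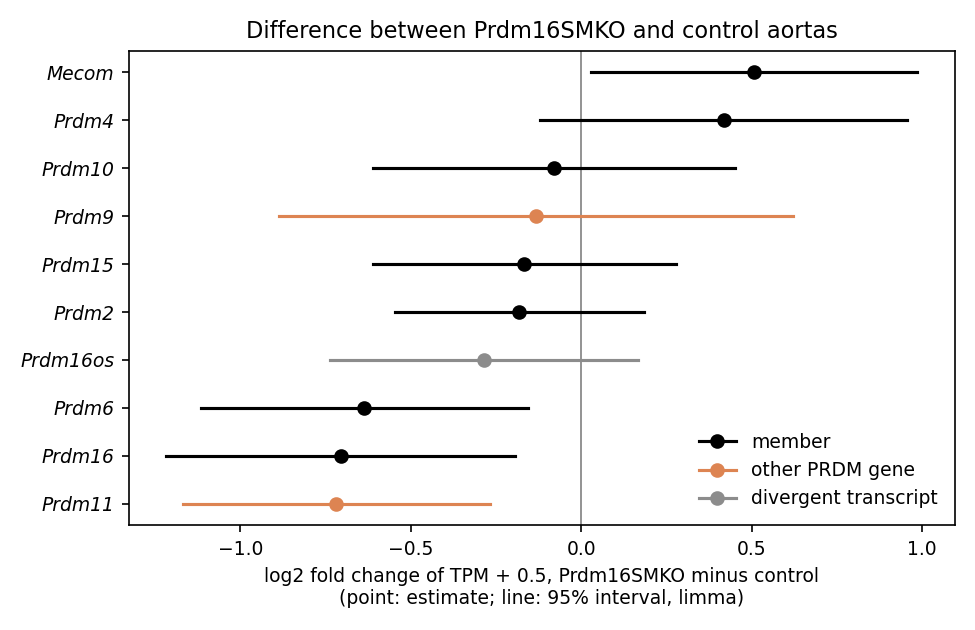
Log2 fold change of TPM + 0.5, Prdm16SMKO minus control, with its 95% interval from limma (n = 3 libraries per group), for the 7 tested members (black), the 2 other tested PRDM genes (orange) and Prdm16os (grey). The intervals of Prdm11, Prdm16, Prdm6 and Mecom do not include 0, and the other 6 do.

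Levels were also set against summed smooth muscle or endothelial markers, a comparison chosen after the values were seen. Which cells of the aorta express Prdm11 and Mecom was not measured. Per 1000 TPM of smooth muscle markers, Prdm16 was at 1.96, 1.43 and 2.02 in control and 1.14, 1.96 and 1.247 in Prdm16SMKO replicates 1, 2 and 3, and the groups overlapped. Prdm6 was at 4.23, 2.88 and 3.75 in control and 3.10, 3.04 and 2.81 in Prdm16SMKO replicates on the same measure, and it overlapped as well. Prdm11 overlapped too, with 0.647, 0.493 and 0.712 in control and 0.393, 0.589 and 0.446 in Prdm16SMKO replicates. Control replicate 2 had the highest sum of smooth muscle markers, 25790 TPM, and the lowest value of each of these 3 genes among control libraries on this measure. The sum is mostly Acta2 and Tagln, and its members did not all go one way, with log2 differences from −0.53 for Smtn to 0.51 for Des, 0.13 for Myocd and 0.10 for Mylk. Set against each of the 9 markers alone, Prdm16 overlapped for 6 and was below control for 3, Prdm6 overlapped for 5 and was below for 4, and Prdm11 overlapped for 6 and was below for 3. The overlap therefore depends on the markers used.

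Mecom per 1000 TPM of smooth muscle markers did not overlap, with 0.846, 0.506 and 0.655 in control and 0.852, 1.61 and 1.34 in Prdm16SMKO replicates. Without Acta2 and Tagln it did, and against each marker alone it was above control for 5 of 9. Per 1000 TPM of 8 endothelial markers it did, with 54.2, 41.3 and 29.1 in control and 51.1, 44.9 and 47.8 in Prdm16SMKO replicates. The endothelial sum was 266 to 344 TPM in control and 302, 506 and 333 TPM in Prdm16SMKO replicates 1, 2 and 3, and replicate 2 was also the library with the most Mecom. That library had 199.98 TPM of Pecam1 and 106.79 TPM of Vwf, while Erg was lower in every Prdm16SMKO library than in any control library. Without Pecam1 and Vwf, a choice made after seeing the data, its endothelial sum was 199.3 TPM, within the control range of 171 to 203.5 TPM, and Mecom per 1000 TPM of the other 6 markers did not overlap, at 83.9, 64.1 and 51.9 in control and 92.8, 114 and 85.3 in Prdm16SMKO replicates. Against each of the 8 endothelial markers alone, Mecom overlapped for 7 and was above control for 1. Leaving out Pecam1 and Egfl7, the 2 most abundant of them, also gave overlap. Mecom was then at 122, 87.6 and 68.0 in control and 115, 105 and 94.0 in Prdm16SMKO replicates. Prdm16 per 1000 TPM of all 8 endothelial markers did not overlap, at 126, 117 and 89.6 in control and 68.7, 54.7 and 44.3 in Prdm16SMKO replicates. Set against each of these 8 markers alone, Prdm16 was below control for 5 and overlapped for 3. Prdm16SMKO replicate 2 had the least brown adipocyte RNA, with Ucp1, the thermogenic uncoupling protein, listed at 0, and the most Prdm16 of its group, while replicate 3 had the most brown adipocyte RNA, with Ucp1 at 169.5 TPM, and the least Prdm16. Control libraries did not share this order, since control replicate 3 had the least brown adipocyte RNA, 73.1 TPM in sum, and the least Prdm16. Prdm16SMKO replicate 3 also had the lowest smooth muscle sum, 11850 TPM, and the least Prdm6 and Prdm11. A link between these amounts was not tested.

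Prdm11 was the gene whose profile over the 6 libraries was most like that of Prdm16 among the 9668 other genes whose level averaged 5 TPM or more. Likeness was the mean absolute difference of log2(TPM + 0.5) values, each gene centred on its own mean, and it was 0.0706 for Prdm11. Next came Htr1b, which encodes a serotonin receptor of vascular smooth muscle, at 0.0754, and Fzd5, a Wnt receptor, at 0.0806. Prdm6 was number 159 in this order, at 0.192, and Mecom number 8880, at 0.606.

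For Prdm6 the nearest profiles were those of Irak2, a kinase of interleukin-1 receptor signalling (0.0340), Smarcd3, a muscle subunit of the SWI/SNF chromatin remodelling complex (0.0637), and St5 (0.0734). For Mecom they were Xylt1, a xylosyltransferase of proteoglycan synthesis (0.0629), Ppih, a peptidyl-prolyl isomerase (0.0658), and Rab3il1 (0.0672), and Prdm4 was number 25, at 0.107. These are descriptions over 6 libraries that share the difference between the groups.

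**Figure D4:**
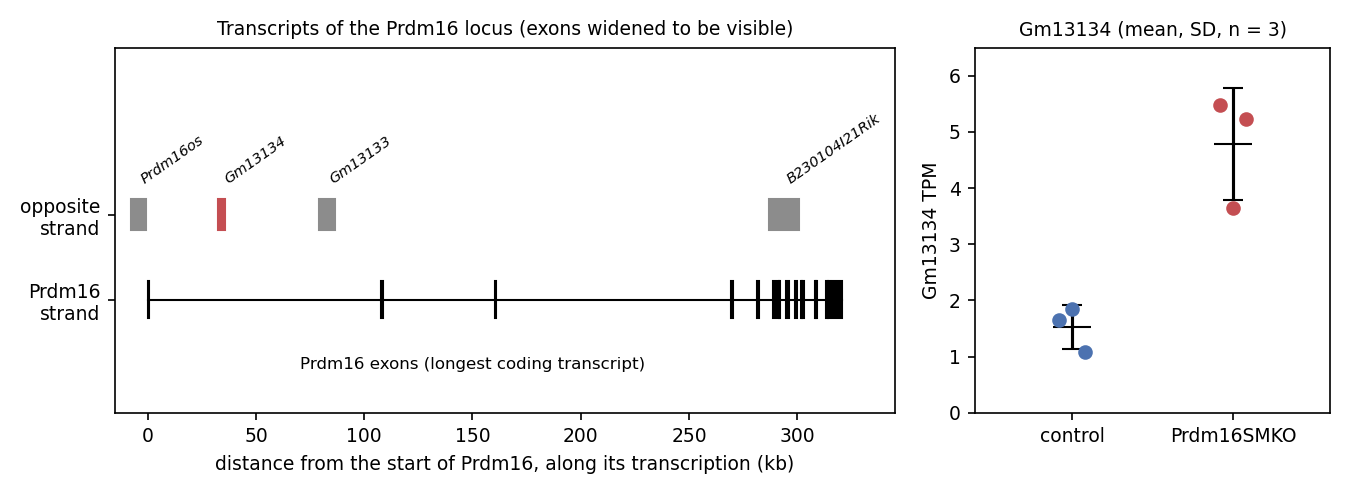
Left, exons of the longest coding Prdm16 transcript and the transcripts annotated on the opposite strand, by distance in kb from the start of Prdm16 along its transcription. Right, TPM of Gm13134, the antisense transcript in the first intron, with 1 point per library, the mean and the SD (n = 3), 1.53 ± 0.390 in control and 4.78 ± 0.998 in Prdm16SMKO mice.

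Around Prdm16, its divergent partner Prdm16os overlapped between the groups, and an antisense transcript of its first intron had higher values in Prdm16SMKO mice. Prdm16os was at 19.0, 20.5 and 14.1 TPM in control and 17.1, 14.0 and 12.4 TPM in Prdm16SMKO replicates 1, 2 and 3, so the groups overlapped, with a log2 difference of −0.29 (95% interval −0.74 to 0.17; limma, Benjamini-Hochberg adjusted p = 0.821). Gm13134 (ENSMUSG00000084987; chromosome 4, 154601197 to 154604202, plus strand) is an antisense transcript in the first of the introns between the 17 exons of Prdm16, 35.7 kb from its start, and its exons shared 0 bases with those of Prdm16. It was named after its value was seen. Gm13134 was at 1.65, 1.84 and 1.09 TPM in control and 5.48, 3.64 and 5.23 TPM in Prdm16SMKO replicates, with no overlap.

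The log2 difference of Gm13134 was 1.38 (95% interval 0.81 to 1.96; limma, unadjusted p = 4.4e-04, Benjamini-Hochberg adjusted p = 0.0701; exact permutation test, two-sided p = 0.1), short of the threshold with TPM as deposited. It was past the threshold with median-of-ratios scaling (adjusted p = 0.0444), with TPM rescaled without mitochondrial and 45S transcripts (0.0486) and with array weights (0.0132). Without a count that uses strand, which is not stated, reads of this intron and of an antisense transcript in it cannot be told apart.

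Gm13133, in the same intron, did not exceed 0.53 TPM in any library. Arhgef16, a guanine nucleotide exchange factor and the nearest tested gene beyond the end of Prdm16, was at 0.62 ± 0.0361 TPM in control and 0.637 ± 0.272 TPM in Prdm16SMKO mice (SD, n = 3 each). Gm27202, the nearest beyond Prdm16os, was at 12.98 ± 2.82 and 10.7 ± 7.53 TPM, with Prdm16SMKO values on both sides of the control range. Among the 28 other genes tested in the 1 Mb around Prdm16, 0 were called and 2 had an unadjusted limma p under 0.05, beside 0.355% and 8.74% of all genes.

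At the Mecom locus, the antisense transcript Mecomos, which overlaps Mecom by 81 of its 6253 exonic bases, was at 0.10, 0.27 and 0.28 TPM in control and 1.07, 0.45 and 0.62 TPM in Prdm16SMKO replicates, the direction of Mecom itself. Mecomos lies inside Mecom on the other strand. Without a count that uses strand, its reads and those of Mecom introns cannot be told apart. The mean of Mecomos over the 6 libraries was below 0.5 TPM, so it was not tested, and the exact permutation test gave a two-sided p of 0.1. Mannr, a non-coding transcript next to Mecom, did not exceed 0.14 TPM.

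Genes linked to PRDM factors were tested in 3 lists, where 0.355% of all genes were called, so that 0 calls in lists of this size set no list apart. Of 26 cofactors and partners, among them the CtBP corepressors, the H3K9 methyltransferases Ehmt1 and Ehmt2 and the histone deacetylases Hdac1 to Hdac3, 25 were tested and 0 were called, with 15 higher, 10 lower and a median log2 difference of 0.06. The 3 with the smallest p were Zfp516, Bcl6 and Gata2. Zfp516, a zinc finger partner of PRDM16 in brown fat, was at 15.3, 17.97 and 14.0 TPM in control and 8.25, 11.8 and 7.32 TPM in Prdm16SMKO replicates, with no overlap, a log2 difference of −0.78 (95% interval −1.249 to −0.30; limma, Benjamini-Hochberg adjusted p = 0.258).

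Bcl6, the repressor that opposes Prdm1 in B cells, went from 5.42 ± 2.74 to 9.37 ± 2.91 TPM and Gata2, a factor of hematopoietic and endothelial cells, from 7.08 ± 1.13 to 13.4 ± 6.07 TPM (SD, n = 3 each), with overlap in both. Their limma adjusted p-values were 0.558 and 0.580. With array weights Bcl6 was past the threshold (adjusted p = 0.0409), and its adjusted p over all alternatives ran from 0.0409 to 0.972.

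Of 14 H3K9 and H3K4 methyltransferases outside the family all were tested and 0 were called, with 5 higher and 9 lower and a median of −0.07. Setd1a, Kmt2c and Setdb2 had the smallest p, with log2 differences of −0.28, −0.24 and −0.34 and limma adjusted p-values of 0.732, 0.796 and 0.821. Of 8 brown fat and proteinase genes linked to PRDM16, 7 were tested and 0 were called, with no unadjusted p under 0.05. Ppargc1a, Cox7a1 and Dio2 came first by p, with log2 differences of 0.57, −1.10 and −0.14. Without Prdm16SMKO replicate 3 that of Ppargc1a, a transcriptional coactivator, was 0.13. Cox7a1, a muscle and brown fat subunit of cytochrome oxidase, was at 28.3, 10.7 and 10.65 TPM in control and at 9.80, 0 and 69.96 TPM in Prdm16SMKO replicates 1, 2 and 3, the order of the brown adipocyte markers. Its means were 16.6 TPM in control and 26.6 TPM in Prdm16SMKO mice, against the sign of the log2 difference, which was 0.81 without replicate 2, the library listed at 0. Adam12, the proteinase gene that the study followed, was at 0.94, 0.95 and 0.43 TPM in control and 0.51, 0.35 and 2.41 TPM in Prdm16SMKO replicates, and the groups overlapped. The paper reported its increase after Prdm16 knockdown by qPCR in cultured rat VSMCs, with promoter binding by chromatin immunoprecipitation. TPM of whole mouse aorta are a different measure.

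The direction of Prdm16, Prdm6, Prdm11 and Mecom was the same under each of 16 alternatives, and none of the 4 passed the threshold under any of them. As the groups did not overlap in these genes, leaving out a library, another pseudocount or array weights could not reverse the direction. The expression minima, the trend and the replicate block left the estimates as they were. Only the scalings and quantile normalization could have reversed a direction. The log2 difference ran from −0.92 to −0.48 for Prdm16, from −0.83 to −0.45 for Prdm6, from −0.85 to −0.55 for Prdm11 and from 0.33 to 0.61 for Mecom. Leaving out Prdm16SMKO replicate 3 gave the smallest difference for Prdm16, Prdm6 and Prdm11, and leaving out Prdm16SMKO replicate 2 gave the smallest for Mecom. The lowest adjusted p of the 4 genes were 0.0834, 0.0514, 0.0624 and 0.267 in the order Prdm16, Prdm6, Prdm11 and Mecom, each with limma's array weights, by which noisier libraries enter the fit with less weight.

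**Figure D5:**
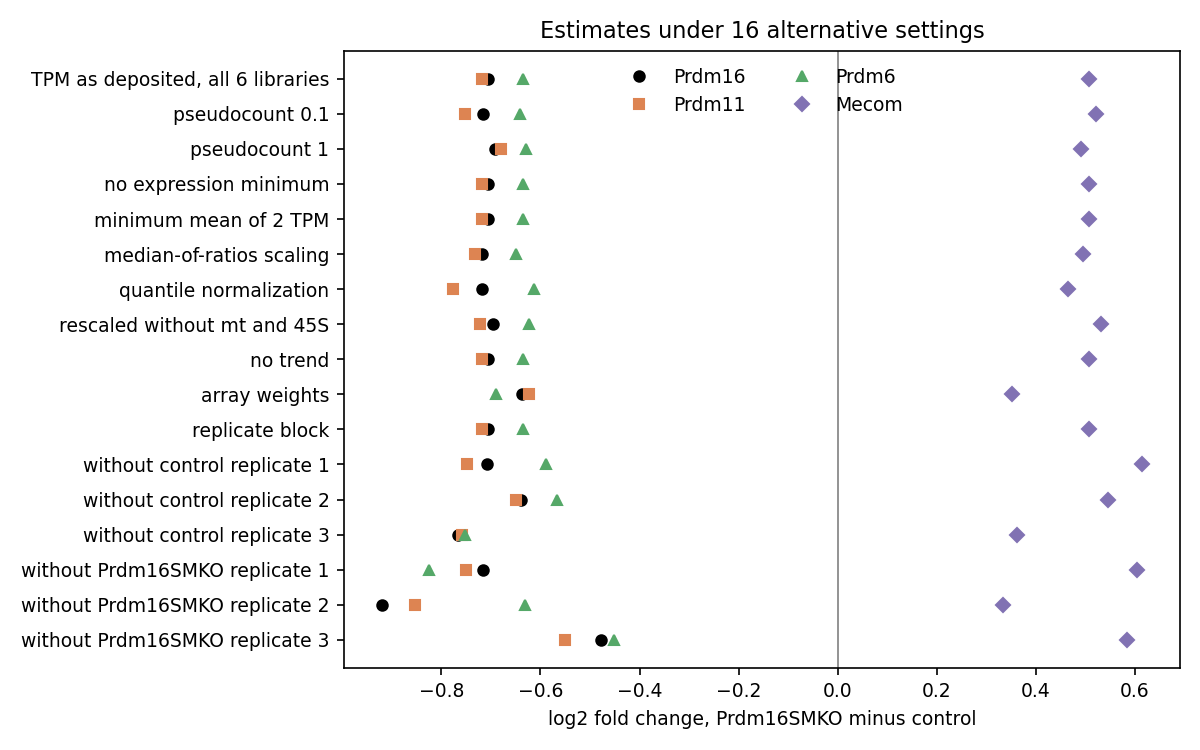
Log2 fold change, Prdm16SMKO minus control, of Prdm16, Prdm11, Prdm6 and Mecom with TPM as deposited and under 16 alternatives, 1 row each. The first 3 stay below 0 and Mecom stays above 0 in every row, which most rows could not change because the groups did not overlap.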

How the data were processed

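The authors deposited TPM, corrected for transcript length, scaled to the same total in each library and rounded to 2 decimals. The submitters' processing notes name cutadapt 2.3, STAR 2.7.8a, RSEM 1.3.3 and the build GRCm38. The annotation release and any use of strand in counting are not given in the sources used here. Libraries came from polyadenylated RNA. TPM hold no depth, so no count model was used. Library columns were joined to samples by the names in the labels, and 0 pairs of libraries were identical.

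Expression was log2(TPM + 0.5) of the 15775 genes that averaged 0.5 TPM or more over the 6 libraries, and Prdm16SMKO was compared with control by limma 3.58.1 (R 4.3.3) with a trend on expression and Benjamini-Hochberg adjustment over all of these genes. Single genes also had an exact two-sided permutation test (scipy 1.17.1). Named were the PRDM genes, the antisense or host transcripts and nearest tested neighbours, the 3 genes of smallest p in each of 3 lists and the 3 profiles most like Prdm16, Mecom and Prdm6. Members and lists were chosen with earlier results of these data known. One further gene of the naming rule is not reported here.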

Additional observations from a re-analysis of the deposited data

How the results depend on the processing

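Besides the fit described, 16 others used a pseudocount of 0.1 or 1, no expression minimum, a minimum mean of 2 TPM, median-of-ratios scaling, quantile normalization, TPM rescaled without mitochondrial and 45S transcripts, no variance trend, array weights, a replicate block and each library left out. None of the 9 members was called under any of them. Same-numbered libraries did not deviate together (correlations −0.131, −0.110 and 0.0188), and other pairs across the groups ran from −0.167 to 0.242. These correlations cannot tell whether same-numbered libraries shared a batch, and the labels give only a replicate number. With the replicate block, Prdm16 stayed at −0.70 (adjusted p = 0.311), and the block changed no call of a named gene but left 4 genes called of the 15775, against 56. Over all genes the number called ran from 4 to 494, with array weights the highest. It was 10 with no minimum, 33 without the trend, 153 with median-of-ratios scaling, 129 with quantile normalization, 123 with TPM rescaled, 17, 5 and 17 without control replicates 1, 2 and 3 and 28 without Prdm16SMKO replicate 2. Some differences changed sign. Arhgef16 was at 0.0684 with array weights and at 8.0e-04 with a pseudocount of 1. With libraries left out in turn the log2 difference ran from −0.273 to 0.0422 for Prdm10, −0.42 to 0.16 for Prdm9, −2.76 to 0.81 for Cox7a1, −0.474 to 0.0297 for Dio2 and −0.15 to 0.20 for Arhgef16. The cause was not tested. With 3 libraries per group and no depth, small changes of low genes could not be measured.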
